A study of Mus musculus with 50 samples.

Results

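The mitochondrial ribosomal protein genes, whose symbols start with Mrpl or Mrps followed by a digit, were described in single hemogenic endothelial cells made in culture from mouse embryonic stem cells. The table held 76 such genes among 11879 rows, and every row with such a symbol was taken without regard to its values. They were 47 Mrpl and 29 Mrps symbols. By the known place of each protein, 49 belong to the large subunit and 26 to the small subunit, since the products of Mrps18a and Mrps30 sit in the large subunit in spite of their names. Mrps36 was once counted with the small subunit and is now known as a subunit of the alpha-ketoglutarate dehydrogenase complex, so it belongs to neither.

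The 50 cells formed 1 group, named iR-iHEC by the labels. The parental line, iRunx1-ESC, is of C57BL/6 background and carries a Runx1 cassette in the Rosa26 locus that doxycycline switches on, so every cell came from the same engineered line and no cell without the cassette was analysed here. In the paper's protocol, doxycycline was added during differentiation, before the iHECs were sorted. All 50 cells are therefore taken as treated, and no untreated cell was analysed here. The cells were sorted by the study with the surface phenotype CD31+CD41lowCD45-c-kit+CD201high, and the cDNA of each cell was amplified before sequencing. The labels name no culture or animal of origin, so the group counted as 1 sample. Values over the 50 cells are therefore given as descriptions with no test, and a spread over cells includes what amplification adds to it.

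Mitochondria keep a ribosome of their own in the matrix, which translates the few proteins encoded by mitochondrial DNA, all of them core subunits of the respiratory chain or of ATP synthase. The ribosomal RNAs are made inside the organelle, whereas every protein of this ribosome is encoded in the nucleus, made in the cytosol and imported. Some of these proteins descend from bacterial ribosomal proteins and others were gained in the mitochondrial lineage. Of the members, 46 are homologues of bacterial ribosomal proteins and 29 are specific to mitochondria.

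The labelled cell type was checked against its markers. The endothelial genes Pecam1, Cdh5 and Esam were above TPM 1 in 50 of 50 cells each and Tek in 49. The leukocyte gene Ptprc (CD45) was listed at 0 in all 50, which alone was not read as absence. Of the genes for sorted proteins, Procr (CD201) was above TPM 1 in 50 cells, Kit in 47 and Itga2b (CD41) in 40. Of other cell types, Col3a1 was above TPM 1 in 0 cells, Col1a2 and Pdgfra in 2 each, Hbb-b1 in 3, and the myeloid genes Lyz2 and Cd68 in 15 and 22. Whether cells with these transcripts differ in the members was not tested. TPM is an abundance scaled by transcript length to a common total per cell, so levels of different genes can be set side by side. It keeps no read depth, which therefore is unknown here for every cell. A gene was counted as detected in a cell at TPM above 1.

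Promoters of 67 of the 76 members were found in the RefSeq promoter table (GRCm38.p6). They were searched on both strands for 2 short cores that are known in promoters of nuclear genes for mitochondria. The letters GCGCATGC are a core of sites for NRF1, a regulator of many such genes, and CCGGAAGT is a core shared by factors of the ETS family, among them the GA-binding protein. The sequences shown run from 100 bases before the annotated start to 10 after it, 5′ to 3′ on the gene's strand, with matches to either core or its reverse complement in capitals. Mrpl33 was the only member whose promoter held both cores. Mrpl32 had the most matches, and the NRF1 core and its reverse complement overlap there. Mrpl17 was detected in every cell, with a median that was 56th of the 76. Mrpl3 and Mrps27 were each detected in fewer than 40 cells. Mrpl23 and Mrps2, the members of highest and lowest median over the 50 cells, had neither core in the whole window. All windows follow the RefSeq start. For Mrpl23 and Mrpl33 the window lies inside the gene as GENCODE places it, past the first base of the gene. What is said of cores there holds for the RefSeq start only.
Mrpl33, chr5:31613851-31613960, plus strand: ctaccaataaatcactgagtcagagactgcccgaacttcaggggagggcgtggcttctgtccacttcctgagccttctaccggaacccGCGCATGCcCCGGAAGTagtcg
Mrpl32, chr13:14613028-14613137, minus strand: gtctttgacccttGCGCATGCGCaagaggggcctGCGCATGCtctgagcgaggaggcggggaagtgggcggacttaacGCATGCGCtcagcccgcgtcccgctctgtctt
Mrpl17, chr7:105811078-105811187, minus strand: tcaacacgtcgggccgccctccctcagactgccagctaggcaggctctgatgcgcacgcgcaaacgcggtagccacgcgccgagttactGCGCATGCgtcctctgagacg
Mrpl3, chr9:105053168-105053277, plus strand: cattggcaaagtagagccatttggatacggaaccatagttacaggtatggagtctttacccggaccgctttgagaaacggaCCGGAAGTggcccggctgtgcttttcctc
Mrps27, chr13:99344686-99344795, plus strand: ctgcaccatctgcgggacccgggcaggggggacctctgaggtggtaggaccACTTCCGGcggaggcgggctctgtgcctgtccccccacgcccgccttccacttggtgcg
Mrpl23, chr7:142532932-142533041, plus strand: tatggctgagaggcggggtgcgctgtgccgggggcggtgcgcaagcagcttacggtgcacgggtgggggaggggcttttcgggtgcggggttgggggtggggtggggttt
Mrps2, chr2:28467966-28468075, plus strand: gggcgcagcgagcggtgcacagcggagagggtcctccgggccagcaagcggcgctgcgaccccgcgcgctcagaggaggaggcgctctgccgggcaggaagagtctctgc

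Over windows of 250 bases before to 50 after the start, the NRF1 core was present in 8 of 67 members (11.9%), against 3.05% of the promoters of 27025 symbols and 6.12% of 8796 rows of the table with a promoter. The ETS core was present in 12 of 67 members (17.9%), against 4.31% of all symbols and 9.00% of rows of the table. At least 1 core was present in 19 members (28.4%), against 7.06% of all symbols and 14.3% of rows of the table. Members with and without a core had similar levels. The median TPM was 109 with the NRF1 core and 105 without it, and 96.4 with the ETS core and 105 without it. A match is a run of letters and was not read as a bound site.

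Transcripts of the mitochondrial ribosome were found in nearly all cells. Of 3800 combinations of a member and a cell, 3396 (89.4%) were above TPM 1, 96 (2.53%) were above 0 and at most 1, and 308 (8.11%) were listed at 0. A listed 0 can be a failed estimate and was not read as absence. Where a member was detected, it was seldom near the threshold. Only 129 values lay between 1 and 10 TPM, 1406 between 10 and 100, and 1861 above 100.

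All 76 members were above TPM 1 in at least 25 of the 50 cells, as were 53.2% of all rows. In 50 of 50 cells, 8 members were detected, namely Mrpl23, Mrpl42, Mrps18a, Mrpl33, Mrps21, Mrpl12, Mrpl34 and Mrpl17, and 7.15% of all rows were. The count fell to 5 members at TPM above 5 (4.74% of rows) and to Mrpl23, Mrpl33 and Mrps21 at TPM above 10 (4.15% of rows). The median member was detected in 45.5 cells (91%), against 26 (52%) over all rows. A total of 44 members were detected in 45 or more cells and 67 in 40 or more. No share of all rows was computed for these counts. The cytosolic ribosomal protein genes (80 rows) and the nuclear-encoded respiratory chain genes with their assembly factors (83 rows) each had a median of 50 cells, with 76 and 63 rows detected in all cells. Fewer members of the mitochondrial ribosome were thus seen in every cell than of those sets, but 12 members were above 0 in every cell and none was at 0 in all.

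The median over the 76 members of their median TPM was 106, with quartiles of 58.3 and 149, against 2.1 for all rows, 379 for the respiratory chain rows and 1276 for the cytosolic ribosomal protein rows. Levels differed 77.1-fold between the highest median (Mrpl23) and the lowest (Mrps2). The median of Mrps2 lies in a gap between 1.27 and 7.81 TPM, so leaving out 1 cell moved that fold to between 44.7 and 277. Against Mrps25, the next lowest, it was 45.3. A total of 41 members had a median above 100 TPM, as did 1573 of all 11879 rows. So did 72 of the 83 respiratory chain rows and 77 of the 80 cytosolic ribosomal protein rows. A median under 50 was found for 13 members, and no share of all rows was computed for that level. The order of the members was gradual. All 75 pairs of neighbours in that order had overlapping quartile ranges, and the member with the higher median was above its neighbour in only 18 to 35 of the 50 cells, whereas Mrpl23 was above Mrps2 in 50 of 50.

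**Figure D1:**
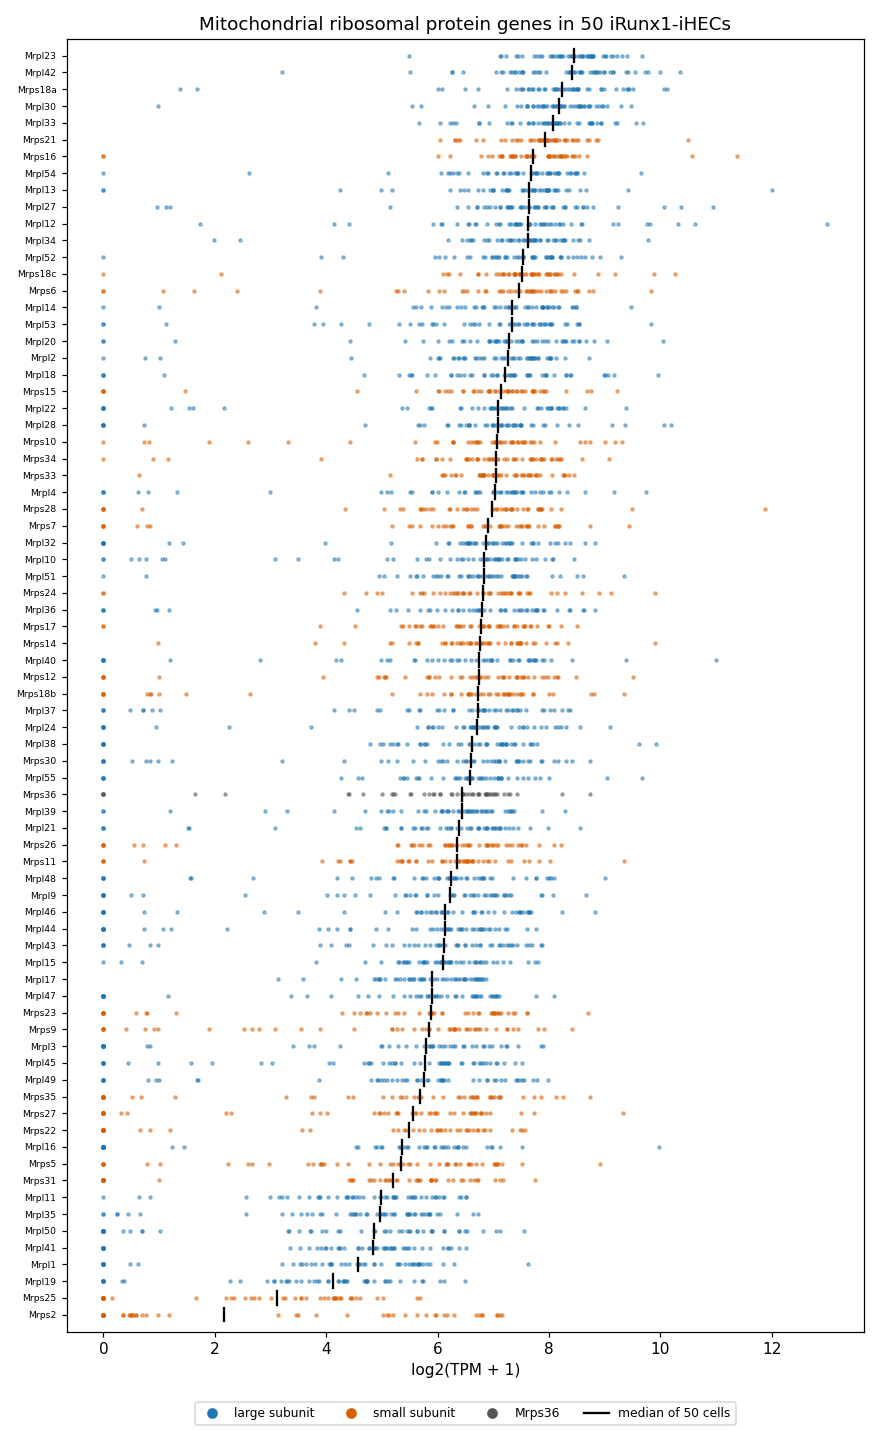
Level of each of the 76 members in each of the 50 cells, as log2(TPM + 1), with 1 point per cell and the median as a bar, ordered by median from Mrpl23 (350 TPM) to Mrps2 (4.54 TPM). Points at 0 on the left gather in the lower rows, while the upper rows form compact clouds with a few high points, such as Mrpl12 at 8189 TPM.

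Of the 12 members of highest median, 10 were large subunit proteins. Mrpl23, a homologue of the bacterial protein at the exit of the peptide tunnel, lies on chromosome 7, 142532686 to 142540747 (GRCm38), and had the highest median at 350 TPM. It ranged from 44.1 to 811. Mrpl42, specific to mitochondria, had a median of 341 and ranged from 8.22 to 1306. Mrps18a, a large subunit protein, had a median of 300 and ranged from 1.59 to 1109. All 3 were detected in every cell, and Mrps18a was near the threshold in its lowest cells. Mrpl30 had a median of 288 (0.97 to 712), with 1 cell just under TPM 1. Mrpl33, a homologue of a small bacterial protein, had a median of 268 and a narrow range from 49.97 to 825. Mrpl54, Mrpl13, Mrpl27, Mrpl12 and Mrpl34 had medians between 197 and 205 and were detected in 48 to 50 cells. Mrpl12, which is also known to bind the mitochondrial RNA polymerase, ranged from 2.33 to 8189 around its median of 197.

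The small subunit was represented among these 12 by Mrps21 and Mrps16. Mrps21 had a median of 244 TPM and ranged from 65.1 to 1436, so that it never came near the threshold. Mrps16 had a median of 210 and ranged from 0 to 2657, with 2 cells at 0. Mrpl23, Mrpl42, Mrps21 and Mrpl27 have near-identical transcripts of other genes in the annotation (at least 95% identity over at least 50% of the length), so their values are uncertain to the extent that the authors' counting divided reads between copies.

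A total of 14 members were detected in 41 or fewer cells, 9 of the 26 of the small subunit and 5 of the 49 of the large. Of these 14, 5 were tied at 41 cells, and no share of all rows was computed for this limit. Mrps2, a homologue of a bacterial small subunit protein that lies on chromosome 2, 28468066 to 28471178, was above TPM 1 in 26 cells (52%, exact Clopper-Pearson 95% interval 37.4 to 66.3%, counting error over cells only). It was at 0 in 12 cells and between 0 and 1 in another 12, with a median of 4.54 and a highest value of 142 TPM. Over only the cells above TPM 1 its median was 57.7, against 14.9 for Mrps25. Mrps2 was above Mrps25 in 26 cells and below it in 20, and leaving out any 1 of 12 cells put its median above that of Mrps25, so the order of the 2 is not settled. Mrps22, specific to mitochondria, was detected in 32 cells (49.2 to 77.1%), had a median of 44.1 and reached 189, and was above 10 TPM in 31 of those cells and at 1.28 in the other. Mrps25 was detected in 34 cells but stayed low, with a median of 7.72 and a highest value of 50.2. Mrps31, Mrps27, Mrps35, Mrps9 and Mrps23 were detected in 37 to 41 cells with medians from 35.8 to 57.9 TPM, and Mrps18b, also in 41 cells, had a higher median of 105.

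Of the large subunit, Mrpl16, whose bacterial homologue lies beside the transfer RNA sites, was detected in 35 cells and at 0 in 15. Its median was 40.1 and its highest value 1009, against a second highest of 182. Mrpl3, a homologue of an early-assembling bacterial protein, was detected in 36 cells with a median of 54.7 and a highest value of 238. Mrpl50 was detected in 37 cells with a median of 28.2, and Mrpl1 and Mrpl47 in 41 cells each with medians of 22.7 and 58.4. By the first number in the cell titles, the median of Mrpl16 ran from 0 to 60.1. That of Mrpl3 ran from 23.4 to 59.7 and that of Mrpl50 from 0.814 to 58. The intervals of members in 35 to 41 cells overlap, so their order in detection is not resolved by 50 cells.

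**Figure D2:**
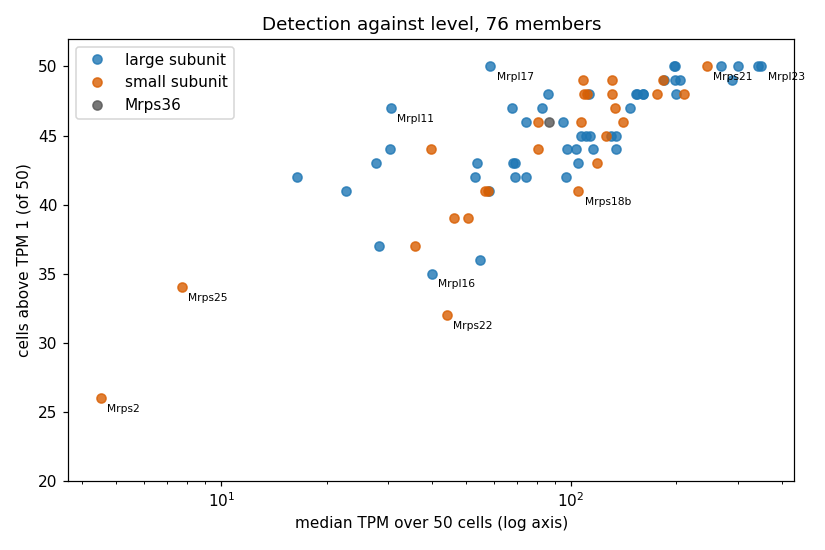
Number of the 50 cells above TPM 1 against the median TPM over 50 cells (log axis), 1 point per member, coloured by subunit. The points rise together from Mrps2 (26 cells, 4.54 TPM) to Mrpl23 (50 cells, 350 TPM), while Mrpl17 sits at 50 cells with a median of 58.8 TPM and Mrps22 at 32 cells with 44.1 TPM.

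Level and detection rose together across members (Spearman's rho 0.80 across 76 genes, which are not independent replicates), and a cell at 0 lowers both. Mrpl17 stood apart from that order. It was detected in all 50 cells with a median of only 58.8 TPM and a range from 7.79 to 115. Mrpl11 was detected in 47 cells at a median of 30.5 TPM. In contrast, Mrps18b had a median of 105 TPM and was detected in 41 cells. Mrpl17 and Mrpl11 were chosen for mention after their values were seen.

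Spread was given as the SD of log2(TPM + 1) over the 50 cells. Its median over members was 2.1496, close to 2.1652 for all rows detected in at least 25 cells, and larger than 0.87 for the respiratory chain rows and 0.54 for the cytosolic ribosomal protein rows. It ran from 0.72 (Mrpl23) to 3.05 (Mrps22), and the next lowest were Mrps21 with 0.78, Mrpl17 with 0.85 and Mrpl33 with 0.89. Among members detected in 20% to 80% of cells, the 8 of largest SD were Mrps22, Mrpl16, Mrpl3, Mrps2, Mrps35, Mrps27, Mrps31 and Mrpl50, and Mrps25 was the ninth member in that range. The SD fell as the share of cells rose (rho -0.86 across members), since zeros widen it. With a pseudocount of 0.1 in place of 1 the median SD was 2.99 for members and 3.19 for those rows. Over only the cells above TPM 1, the median SD was 1.26 and the range 0.68 to 1.84.

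Single high values were part of that spread. For 4 members the highest cell was more than 5 times the second highest, and the share of all rows with such a value was not computed. Mrpl13 reached 4139 TPM against 682 in the next cell, Mrpl12 reached 8189 against 1568, Mrpl16 reached 1009 against 182, and Mrps28 reached 3779 against 716. The first pair of these maxima came from the same cell, which is described with the sums.

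By subunit, the members were close in median detection and level. Large subunit members had a median of 45 cells and 105 TPM, and small subunit members 45.5 cells and 107 TPM. By origin, bacterial homologues had a median of 46.5 cells and 115 TPM and mitochondria-specific members 43 cells and 80.2 TPM. The 10 mitochondria-specific members of the small subunit were lowest in both, with 40 cells and 54.3 TPM, and the 16 bacterial homologues of that subunit had 46.5 cells and 115 TPM. Each class overlapped the others. The bacterial homologues ran from 4.54 to 350 TPM in their medians and the mitochondria-specific members from 7.72 to 341.

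The Mrps18 paralogues, related to a single bacterial ribosomal protein, differed in level. Mrps18c is counted as its homologue, and Mrps18a and Mrps18b among the mitochondria-specific proteins. Mrps18a, of the large subunit, had a median of 300 TPM. Mrps18c, of the small subunit, was detected in 49 cells with a median of 183 (0 to 1230). Mrps18b, also of the small subunit, was detected in 41 cells with a median of 105 (0 to 653). Mrps18a was the highest of the 3 in 37 cells, Mrps18c in 12 and Mrps18b in 1, and all 3 were detected together in 40 cells. Their levels over the 50 cells had little relation (rho 0.17 for a with b, -0.05 for a with c and 0.01 for b with c). Mrps30, of the large subunit, was detected in 42 cells with a median of 96.7 (0 to 426). Mrps36 was detected in 46 cells with a median of 86.2 (0 to 427), inside the range of the ribosomal members.

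Per cell, the number of members detected ran from 39 to 76, with a median of 71 and quartiles of 63 and 73.75. All 76 were detected in 7 cells, and 28 cells missed at most 5, while 5 cells missed 20 or more. The titles of the cells carry a pair of numbers of which the labels do not give the meaning, and the median count ran from 67 to 73 over the 4 values of the first number. The summed TPM of the members had a median of 10028 per cell (1.04% of the cell's total in the table) and ran from 6872 to 21124, or 0.712 to 2.2%. The second highest sum was 14484, so that 1 cell lay far above the others.

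That cell, with title number 4-6, had the fewest members (39), the fewest genes above TPM 1 (2400) and the highest summed TPM. Of its sum, 14375 TPM (68.1%) came from Mrpl12, Mrpl13 and Mrpl40, where Mrpl40 stood at 2047, while 30 members were at 0. Without these 3 members its sum was 6748, the second lowest of the 50 cells, against a median of 9475 in the others. A total of 7 members had their highest value in this cell. The share of all rows with their highest value there was not computed, so the count is not read as a trait of the members. In the median cell, the 3 most abundant members made up 17.2% of the sum.

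The number of members detected followed the number of other genes detected. Over 50 cells rho was 0.86 and Pearson's r 0.85 (0.81 without the 2 cells farthest from the median), and rho ran from 0.61 to 0.93 within the values of the first title number. The points share the amplification, the unknown depth and the total to which TPM is scaled, and the part of depth in this relation was not tested.

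The summed level had little relation to genes per cell. The Spearman correlation of the summed TPM with genes above TPM 1 was 0.08 (-0.06 to 0.21 within title numbers), 0.15 without cell 4-6, and 0.23 over all cells without Mrpl12, Mrpl13 and Mrpl40. Pearson's r was -0.21 with all cells and 0.12 without cell 4-6. The Spearman correlation with genes per cell was 0.60 for the median TPM over all 76 members and 0.07 for the median over only those detected in the cell. Thus the number of members detected followed genes per cell, and their sum did so only weakly. The sum of the cytosolic ribosomal protein rows fell with genes per cell (rho -0.64, from -0.81 to -0.29 within title numbers). The sum of the respiratory chain rows was in between over all cells (rho -0.29), but ran from -0.69 to 0.14 within title numbers.

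**Figure D3:**
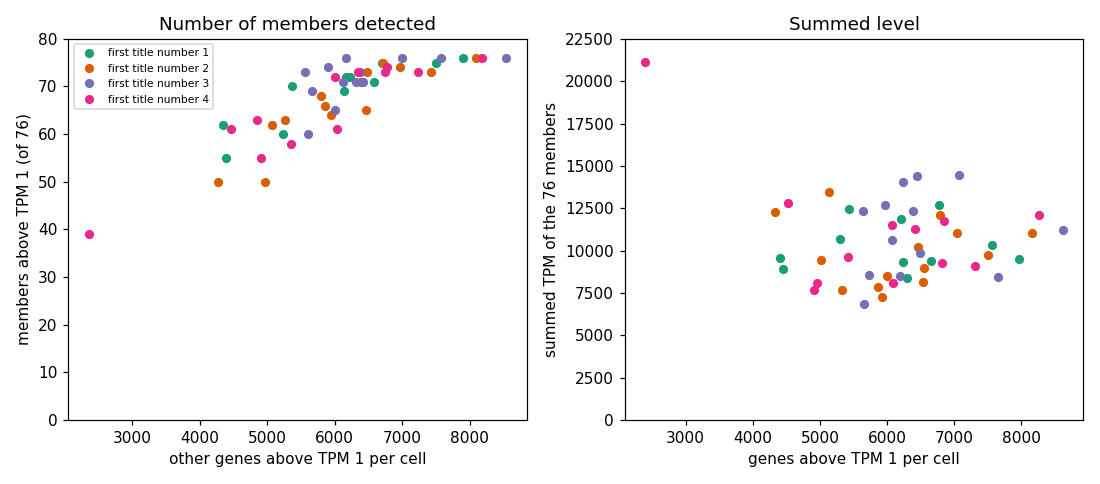
Left, members above TPM 1 (of 76) against other genes above TPM 1 per cell. Right, summed TPM of the members against genes above TPM 1 per cell, with 1 point per cell, coloured by the first number of the title. Detection climbs from 39 to 76 with genes per cell, while the sums lie between 6872 and 14484 TPM, apart from the cell at 2400 genes and 21124 TPM.

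Large and small subunit members were detected together but their sums were only weakly related. The numbers detected had a rho of 0.73 over cells, and the summed TPM of the subunits one of 0.22 (0.28 without cell 4-6), which ran from -0.27 to 0.65 within title numbers. The summed TPM had a median of 6876 for the large subunit and 3168 for the small, and the ratio of large to small had a median of 2.2. It was above 1 in 48 cells and ran from 0.905 (cell 4-1) to 8.34 (cell 4-6). The summed TPM of the members had a rho of 0.66 with that of the respiratory chain rows (0.64 without cell 4-6, 0.36 to 0.91 within title numbers) and of 0.11 with that of the cytosolic ribosomal protein rows.

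Among single members, 21 of 76 (27.6%) had a rho above 0.3 between their TPM and the number of other genes detected, close to the 25.2% of rows detected in at least 25 cells. The median rho was 0.20 for members and 0.19 for those rows, against -0.34 for the cytosolic ribosomal protein rows (2 of 78 above 0.3) and 0.07 for the respiratory chain rows (11 of 82). Without cell 4-6 the count was 16 members (21.1%) against 21.5% of rows, and without the 7 cells under 5000 genes 13 (17.1%) against 18.1%. By Pearson's r on log2(TPM + 1) it was 42 (55.3%) against 47.8%.

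The highest were Mrpl49 (0.56, or 0.54 without cell 4-6), Mrps27 (0.50), Mrpl3 (0.48), Mrps36 (0.44) and Mrpl16 (0.43). These were detected in 35 to 46 cells. Mrpl33 was the lowest at -0.44 (-0.40 without cell 4-6, and from -0.56 to -0.26 as the cells of each first title number were left out, with -0.26 without number 4) and was detected in every cell, so its level tended to be higher in cells with fewer genes. Mrpl47 (-0.19) and Mrps17 (-0.17) came next. Mrpl47 was at -0.06 without number 1, and Mrps17 at -0.04 without number 4. Mrps21 and Mrpl13 were at -0.04 each, and both crossed 0 in that range. Mrpl47 was detected in 41 cells with a median of 58.4 TPM, and Mrps17 in 48 cells with a median of 109.

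**Figure D4:**
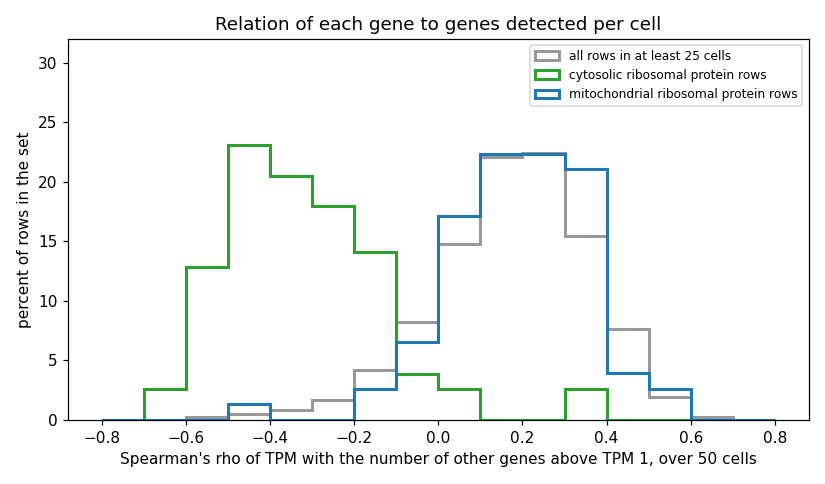
Distribution of Spearman's rho between a gene's TPM and the number of other genes above TPM 1 over 50 cells, as percent of the rows in each set. The mitochondrial ribosomal protein rows (median 0.20) lie over all rows detected in at least 25 cells (median 0.19), and the cytosolic ribosomal protein rows (median -0.34) lie to the left.

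Pairs of members were weakly related over the 50 cells. The median rho over 2850 pairs was 0.09, and 0.05 as a partial rho given genes per cell, against 0.04 and 0.01 for all rows detected in at least 25 cells. It was 0.10 for the respiratory chain rows and 0.38 for the cytosolic ribosomal protein rows. A rho above 0.3 was found for 224 pairs (7.86%), against 4.77% of all pairs of rows and 63.1% of cytosolic pairs, and a rho below -0.3 for 14. The highest were Mrpl38 with Mrpl4 (0.60) and Mrpl16 with Mrpl4 (0.56), and Mrpl13 with Mrpl24 was the lowest (-0.58). Mrpl46 and Mrps11 are neighbours on chromosome 7 with overlapping annotated exons on opposite strands, and had a rho of 0.18. The pairs were chosen for their values, apart from the last, which was chosen for its position.

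The members lie on 17 chromosomes, with 10 on chromosome 11, 8 on chromosome 17, 7 on chromosome 6 and 6 on chromosome 7. Their annotated transcripts (GENCODE release M21, 1 per gene) were short, with a median of 1284 bases against 3003 over 11397 rows. They ran from 418 bases (Mrpl52) to 7300 (Mrpl17). Shorter transcripts had higher levels. The Spearman correlation of length with median TPM was -0.67 across members and -0.26 across all rows, and rho of length with the number of cells -0.50 and -0.17. TPM itself divides by length, and the part of that division in this relation was not tested. GC content had a rho of 0.46 with median TPM across members and -0.01 across all rows. Exons of 32 members overlap an exon of another gene, a protein-coding one for 23, and 10 match a transcript of another gene near-identically. For Mrpl53, Mrps25 and Mrps34 that gene is the overlapping neighbour itself. For the other 7 (Mrpl22, Mrpl23, Mrpl27, Mrpl42, Mrps10, Mrps18b and Mrps21) it is not among the protein-coding genes listed as overlapping them. Mrps18b overlaps 1 gene that is not protein-coding and was not named, so whether that gene is its near-identical match is not known. The values of these 37 members in all are uncertain to the extent that reads of the overlapping or copied sequence were counted elsewhere, and no use of strand, which bears on the overlaps, was stated. The other 39 members have neither.

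**Figure D5:**
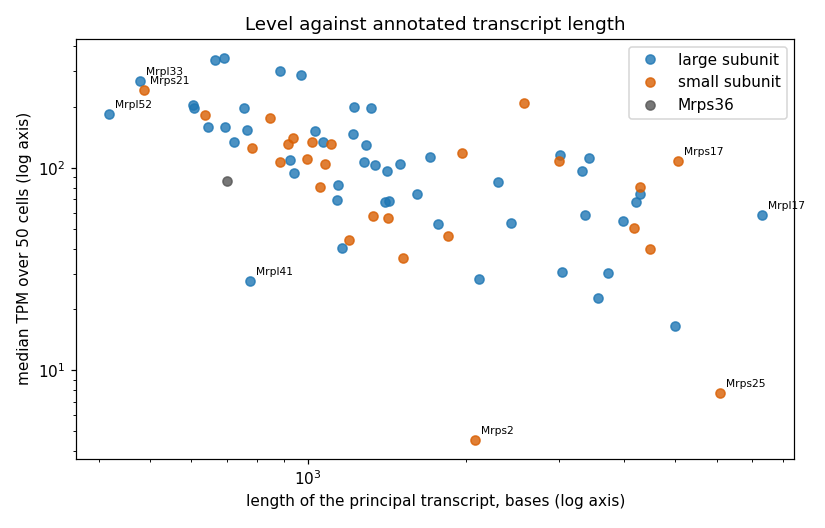
Median TPM over 50 cells against the length of the annotated transcript in bases, both on log axes, 1 point per member, coloured by subunit. Levels fall from the shortest transcripts, such as Mrpl33 (268 TPM), to the longest, such as Mrps25 (7.72 TPM) and Mrpl17 (58.8 TPM).

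Other genes of mitochondrial translation had lower median detection than the members, apart from further ribosomal proteins, and several lists lay near the median of 26 cells over all rows. All 7 listed proteins of the mitochondrial ribosome with other symbols had a row, with a median of 46 cells and 47.8 TPM. They ran from Chchd1 in 50 cells (median 274) to Ptcd3, a pentatricopeptide repeat protein of the small subunit, in 28 (median 3.43). The 11 translation factors had a median of 27 cells and 5.40 TPM, from the recycling factor Mrrf in 42 cells to the release factor Mtrf1 in 16. The 19 listed genes for ribosome assembly and rRNA modification that had a row had a median of 25 cells, from Mpv17l2 in 44 to the methyltransferase Ftsj2 in 11.

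Of the partners that insert new proteins into the membrane or hold mitochondrial mRNAs, Oxa1l, the insertase, was detected in 42 cells and Lrpprc, an mRNA-binding protein, in 26. Of 4 genes for transcription of mitochondrial DNA, Tfam, which packages and helps transcribe that DNA, was detected in 39 cells and Mterf in 10. The 17 mitochondrial aminoacyl-tRNA synthetases had a median of 22 cells, from Lars2 in 50 cells (median 140 TPM) to Pars2 in 8. Of the genes of these lists detected in at least 25 cells, those with a rho above 0.3 with genes per cell were 2 of 7 other ribosomal proteins, 3 of 7 translation factors, 4 of 10 assembly genes, 2 of 3 membrane and mRNA partners, 1 of 1 transcription gene and 1 of 7 synthetases, beside 25.2% of all such rows.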

How the data were processed

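The data were 50 single-cell libraries of iRunx1-ESC-derived iHECs, each from amplified cDNA (Discover-sc WTA Kit V2, TruePrep DNA Library Prep Kit V2). The deposited values are TPM per gene and cell, which the authors estimated with StringTie (1.3.4) after alignment to mm10 with HISAT2 (2.1.0) and, per the submitters' processing notes, SAMtools (0.1.19) and bcl2fastq. The annotation and the rule by which rows were selected are not given in the sources used here. No molecular identifiers were named, so copies made by amplification were not told apart. Columns summed to between 942975 and 970894 TPM, and no pair was identical. No doublets were called and no cell was left out.

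Members and lists were chosen with earlier results of these data known. Members detected per cell (TPM above 1), levels, the SD of log2(TPM + 1) and Spearman's rho were computed with Python 3.11.15, pandas 2.3.3, numpy 2.4.6 and scipy 1.17.1. Only the functions for Spearman's rho were tested on simulated data. Shares of cells carry exact Clopper-Pearson 95% intervals, for counting error only. The Spearman correlation of a gene was taken with the number of other genes above TPM 1. Cytosolic rows were symbols starting with Rpl or Rps and a digit, with kinases and a binding protein of like symbol taken out, and likewise 3 unrelated genes were taken out of the synthetases. Named were the 12 members of highest median, the 12 in the fewest cells (ties in order of median, lowest first), the 8 of largest SD in 20% to 80% of cells, the 5 of highest and 5 of lowest rho, Mrps18a, Mrps18b, Mrps18c, Mrps30, Mrps36 and Mrpl12, and the ends of each other list, 31 members in all by this rule. Other members named (among them Mrpl17, Mrpl11, Mrpl40, Mrps28, Mrpl32, Mrpl38, Mrpl4, Mrpl24 and Mrpl52) were chosen after their values were seen, and Mrpl46 and Mrps11 for their position. Positions came from GENCODE M21 (GRCm38), promoters from RefSeq (GRCm38.p6), and near-identical transcripts from BLAST 2.17.0. Alternatives were other TPM levels, cells left out, rescaling without cytosolic ribosomal protein rows, Pearson's r, a pseudocount of 0.1, and membership.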

Additional observations from a re-analysis of the deposited data

How the results depend on the processing

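No paired analysis was possible because the 50 cells formed 1 group. With Mrps36 out and 7 ribosomal proteins of other symbols added, the median cell had 77 members detected, of 82. Rescaled without cytosolic ribosomal protein rows, the median summed TPM was 11552. Pearson's r of the sum with genes per cell was -0.209, against a rho of 0.084, and rested on cell 4-6 (0.12 without it, an alternative chosen after seeing the data, where rho was 0.15 and 16 members were above 0.3). After rescaling that rho was -0.016. Members above 0.3 numbered 21 by rho, 42 by Pearson's r on log2(TPM + 1) and 13 without the 7 cells under 5000 genes. The median pairwise value was 0.133 by Pearson's r. A pseudocount of 0.1 moved the SD of 16 of the 31 named members by more than its spread between title numbers. Leaving out each first title number in turn gave 15 to 24 members above 0.3, sums of 9643 to 10502, and 75 to 76 members in at least 50% of the cells. Depth is unknown, so a listed 0 cannot be told apart from low coverage.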
